A study of Mus musculus with 12 samples.

Results

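The genes described are 9 effectors of Notch signalling, Hes1, Hes5, Hes6, Hey1, Hey2, Heyl, Nrarp, Lfng and Rbpj, which were picked by name out of 40039 merged loci. Earlier results of these data were known when they were picked, so the shares of members called are descriptive. Poly(A) RNA was sequenced from mouse embryonic stem cells of strain C57BL/6J in 4 groups of 3 libraries. The groups were Notch1-/- embryoid bodies at day 6, WT embryoid bodies at day 6, Notch1-/- cells at day 0 and WT cells at day 0. Day 0 cells were undifferentiated and kept in medium with LIF, either over mouse embryonic fibroblast feeders or on gelatin, and the labels do not say which support a library had. Day 6 embryoid bodies were grown in hanging drops for cardiac differentiation, so every day 6 library shares that treatment. Both Notch1-/- groups carry the Notch1 deletion. The labels name neither the deleted exons nor the number of clones.

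When a ligand of the Delta or Jagged family binds a Notch receptor on a neighbouring cell, the receptor is cut and its intracellular domain enters the nucleus. There it joins Rbpj, the DNA-binding protein of the pathway, and a Mastermind coactivator at target genes. Without that domain Rbpj can hold the same genes off. The Hes and Hey genes are classical targets and encode repressors with a basic helix-loop-helix domain. They hold back lineage genes such as proneural factors. In the embryo Hes1 and Hes5 are best known from neural progenitors. Hey1, Hey2 and Heyl are best known from the heart and blood vessels, and Lfng and Nrarp from the presomitic mesoderm and its segmentation clock.

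Rbpj recognises a core written GTGGGAA, and Hes and Hey proteins bind E-boxes such as CACGTG or the N-box CACNAG. These 3 motifs were searched on both strands in windows from 250 bases before to 50 bases after annotated start sites. Promoter sequences were from RefSeq on build GRCm38.p6, which is not the build of the deposited files, and 6 of the 9 genes matched an entry, the others being Hes1, Hey1 and Heyl. Of 32851 such windows, 6.38% held GTGGGAA, 7.15% held CACGTG and 42.5% held CACNAG. The promoters of Hes5, Hey2 and Lfng are shown because these are the genes with an entry that were called between genotypes at day 6. That of Nrarp, which was not called between genotypes, is shown beside them as one without GTGGGAA. As it was picked for lacking the motif, the set shown does not relate the motif to a call. Capitals mark GTGGGAA on either strand, where TTCCCAC is its reverse complement, and CACGTG. Each is written 5′ to 3′ on the strand of transcription, up to 5 bases past the start site.
Hes5: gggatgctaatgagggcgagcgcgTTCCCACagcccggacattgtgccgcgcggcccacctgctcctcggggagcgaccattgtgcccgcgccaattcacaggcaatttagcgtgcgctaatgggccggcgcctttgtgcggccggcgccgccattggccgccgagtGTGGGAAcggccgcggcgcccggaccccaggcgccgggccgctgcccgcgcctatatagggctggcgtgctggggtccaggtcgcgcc
Hey2: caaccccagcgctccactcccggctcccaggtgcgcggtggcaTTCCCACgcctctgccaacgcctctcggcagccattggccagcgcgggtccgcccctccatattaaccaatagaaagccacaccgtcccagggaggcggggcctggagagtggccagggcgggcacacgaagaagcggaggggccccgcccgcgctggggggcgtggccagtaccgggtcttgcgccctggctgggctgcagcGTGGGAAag
Nrarp: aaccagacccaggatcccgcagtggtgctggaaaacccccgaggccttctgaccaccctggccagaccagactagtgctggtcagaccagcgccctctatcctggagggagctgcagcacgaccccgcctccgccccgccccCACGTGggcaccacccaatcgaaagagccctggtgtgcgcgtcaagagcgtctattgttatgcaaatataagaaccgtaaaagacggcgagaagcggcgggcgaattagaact
Lfng: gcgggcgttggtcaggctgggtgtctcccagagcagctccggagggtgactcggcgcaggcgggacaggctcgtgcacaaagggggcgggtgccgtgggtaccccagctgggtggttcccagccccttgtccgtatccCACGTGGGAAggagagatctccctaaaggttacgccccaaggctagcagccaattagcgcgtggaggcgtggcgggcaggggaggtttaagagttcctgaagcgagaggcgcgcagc

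The Hes5 promoter (chr4:154960673-154960927, plus strand) had 2 GTGGGAA matches, at -226 on the minus strand and at -83 on the plus strand, counted from the start site to the first base of the match. The Hey2 promoter (chr10:30842779-30843033, minus strand) also had 2, at -207 and at -4, on opposite strands. The Lfng promoter (chr5:140607091-140607345, plus strand) had 1 match at -109, which overlapped a CACGTG at -112. The Nrarp promoter (chr2:25180508-25180762, plus strand) had CACGTG at -108 and no GTGGGAA in the window. Neither of the 2 annotated start sites of Hes6 and neither of the 2 of Rbpj had GTGGGAA in the window. CACNAG, not in capitals above, lay at -179 and -79 in Nrarp and at -181 in Lfng. At 1 Hes6 start site it lay at -237 and at 15. It was absent from the windows of Hes5, Hey2 and Rbpj. These letters are descriptions of the windows and say nothing of binding in these cells.

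The libraries held 100637179 to 134662426 counts each. The deposited models give no gene symbols, so loci were tied to genes by the lengths of their exons and introns. All members but Nrarp were tied in this way. Nrarp, which has a single known exon, was tied by its distances to the neighbouring genes. On mm9, Hes1 lay at chr16:30063692-30067882, Hes5 at chr4:154335032-154336480, Hes6 at chr1:93308060-93309799 and Hey1 at chr3:8663359-8667038. Hey2 lay at chr10:30552165-30562589, Heyl at chr4:122910799-122927113, Nrarp at chr2:25035665-25039289, Lfng at chr5:141083295-141091499 and Rbpj at chr5:53946860-54057248. Notch1 itself had 4.90 to 6.80 CPM in Notch1-/- day 6 embryoid bodies, against 30.8 to 38.0 CPM in WT day 6 embryoid bodies. At day 0 it had 3.80 to 4.59 CPM in Notch1-/- cells, against 24.7 to 61.6 CPM in WT cells. CPM are read counts relative to the scaled library size. Stem cell markers (7 of 9 listed genes measured) summed to 662 to 1058 CPM in Notch1-/- and 428 to 592.5 CPM in WT day 6 embryoid bodies. These sums lay below the 1711 to 2982 CPM of Notch1-/- day 0 cells and the 2067 to 2786 CPM of WT day 0 cells. At day 6 the sums of the genotypes did not overlap. Of the 7 tested, 1 (Esrrb) was higher in Notch1-/- day 6 embryoid bodies and 0 were lower.

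Counts were used for 7 members. Hes1 and Nrarp share 99.7% and 50.8% of their exon length with a locus on the opposite strand. Hes1 has 0 counts in every library, so both genes are given as deposited FPKM, the level per transcript length and library size. The locus opposite Hes1 stayed between 0.276 and 1.14 FPKM. Rbpj shares 21.9% with an opposite locus that had 0 counts in all 12 libraries, and 2 Rbpj pseudogenes are named in the mouse annotation, so its level may include reads of those copies. Hes5 (2 to 57 counts per library) and Heyl (7 to 135 counts) were low in every library. Of the 9 members, 8 passed the count filter and 7 the FPKM filter. Hes5 reached the filter's level in 7 of 12 libraries, none of them WT day 6, and Heyl in 10.

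Over 6 days of differentiation Notch1-/- cells raised 4 of the 9 members (Nrarp, Hey1, Hes1 and Hes6) and lowered Rbpj, counting members with an adjusted p under 0.05. Over all loci tested in Notch1-/- cells, 35.9% were called by counts, 17.2% as higher and 18.7% as lower, and 35.1% by FPKM, 21.1% as higher. The values of the 2 days did not overlap for 6 members, against a background of 49.3% of loci by CPM and 51.7% by FPKM. In WT cells 8 of 9 members were called. Hey2, Heyl, Hey1, Nrarp and Hes1 rose, and Rbpj, Hes5 and Lfng fell. There 43.1% of loci were called by counts, 18.4% as higher and 24.7% as lower, and 44.4% by FPKM, 23.6% as higher. The days did not overlap for 8 members, against 53.8% of loci by CPM and 56.5% by FPKM. Feeder fibroblast markers, 18 of 18 measured, summed to 646 to 2588 CPM in Notch1-/- day 0 cells and 1127 to 3661 CPM in WT day 0 cells, and their part in the day 0 levels was not tested.

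Between genotypes at day 6, Hes5 and Lfng were higher and Hey2 and Heyl lower in Notch1-/- embryoid bodies, 4 of 9 members. Over all loci 28.1% were called by counts, 13.7% as higher and 14.4% as lower, and 32.1% by FPKM. The genotypes did not overlap at day 6 for 6 members, against 59.2% of loci by CPM and 67.7% by FPKM. Nrarp is among the 6 by FPKM but overlapped by counts. At day 0 no member was called by edgeR or limma, and none of the 7 members measured by counts was called by DESeq2. At an unadjusted p under 0.05 there was 1 member, Heyl, the 1 member whose genotypes did not overlap. At day 0, 9.56% of loci were called by counts and 6.2% by FPKM, and 20.6% by CPM and 18.5% by FPKM did not overlap. The change over differentiation differed between genotypes for 1 member, Hey2, which was lower, against 11.3% of loci by counts (4.92% as lower) and 13.9% by FPKM.

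**Figure D1:**
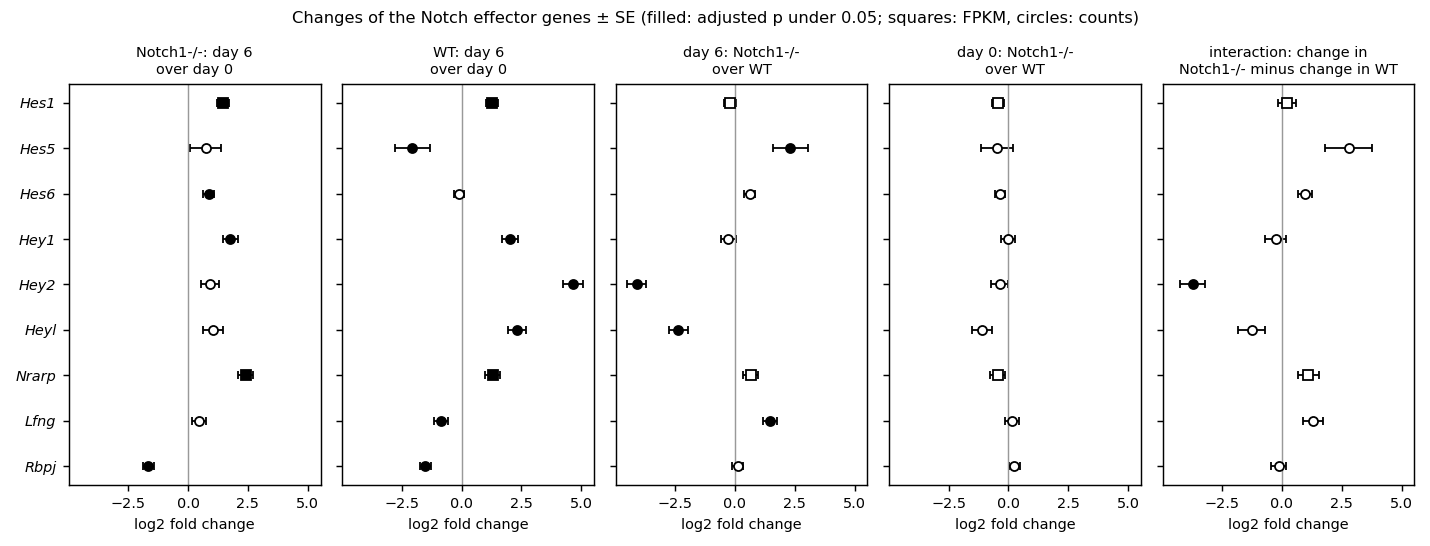
Log2 fold changes with their standard errors for the 9 genes in the 5 comparisons, in 1 panel each; filled symbols mark an adjusted p under 0.05, circles are from counts and squares from FPKM. Hey2 has the largest change of the 9 in WT cells (4.65) and is the only filled symbol in the panel of the difference between genotypes (-3.73).

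Rbpj, the partner through which every Notch receptor reaches DNA, fell with differentiation in both lines. It had 28.0, 34.2 and 32.2 CPM in Notch1-/- day 6 embryoid bodies, 27.9, 28.8 and 31.0 CPM in WT day 6 embryoid bodies, 89.1, 110 and 99.4 CPM in Notch1-/- day 0 cells and 55.2, 119 and 77.4 CPM in WT day 0 cells. Every day 6 library lay below every day 0 library, and the genotypes overlapped on both days. The log2 change from day 0 to day 6 was -1.66 ± 0.23 (SE; adjusted p 0.000184) in Notch1-/- cells and -1.52 ± 0.23 (adjusted p 0.000221) in WT cells. Between genotypes it was 0.11 ± 0.22 at day 6 (adjusted p 0.753) and 0.24 ± 0.22 at day 0 (adjusted p 0.487). WT day 0 replicate 2 was the highest of the 12 libraries. Without it the day 0 difference was 0.59 with an adjusted p of 0.0261, so the call at day 0 turns on that library. Calls over all loci rose as well. Without that library 2548 loci were called higher and 3435 lower at day 0 among 25606 tested by counts. With it these were 889 and 1405 among 23991.

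Hes1, a repressor that answers many signals beside Notch, rose in both lines. It had 44.5, 46.0 and 31.4 FPKM in Notch1-/- day 6 embryoid bodies, 50.02, 46.1 and 44.0 FPKM in WT day 6 embryoid bodies, 9.89, 19.4 and 13.5 FPKM in Notch1-/- day 0 cells and 22.8, 13.2 and 22.4 FPKM in WT day 0 cells. Days separated fully and genotypes overlapped at both. On the log2(FPKM + 1) scale, which understates changes of low genes, limma gave a change over differentiation of 1.47 ± 0.25 (adjusted p 0.00151) in Notch1-/- cells and 1.26 ± 0.25 (adjusted p 0.00242) in WT cells. The genotypes differed by -0.21 ± 0.25 at day 6 (adjusted p 0.551) and -0.43 ± 0.25 at day 0 (adjusted p 0.291).

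Hes6 differs from the other Hes proteins in opposing Hes1 and favouring neuronal differentiation. It had 32.6, 31.6 and 39.6 CPM in Notch1-/- day 6 embryoid bodies, 19.9, 24.6 and 23.2 CPM in WT day 6 embryoid bodies, 18.6, 14.1 and 24.3 CPM in Notch1-/- day 0 cells and 18.4, 28.9 and 25.2 CPM in WT day 0 cells. The 3 Notch1-/- day 6 libraries were the highest of the 12, and the other 3 groups overlapped. Hes6 rose over differentiation in Notch1-/- cells, by 0.87 ± 0.22 on the log2 scale (edgeR, adjusted p 0.00894), and its change in WT cells was -0.10 ± 0.22 (adjusted p 0.745). The difference between these 2 changes was 0.96 ± 0.31 with an adjusted p of 0.0644, and the day 6 difference between genotypes was 0.62 ± 0.22 with an adjusted p of 0.0528. Both lie close to the threshold. Over the alternatives tried, the adjusted p of the day 6 difference ran from 0.00404 to 0.184 and that of the difference between changes from 0.031 to 0.161.

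Hes5, the Notch target most tied to neural progenitors, was rare everywhere. It had 0.180, 0.0780 and 0.424 CPM in Notch1-/- day 6 embryoid bodies, 0.0497, 0.0169 and 0.0684 CPM in WT day 6 embryoid bodies, 0.208, 0.0527 and 0.150 CPM in Notch1-/- day 0 cells and 0.256, 0.196 and 0.118 CPM in WT day 0 cells. The WT day 6 libraries had 2 to 8 counts and lay below the other day 6 group and below WT day 0, while Notch1-/- days overlapped. The log2 difference between genotypes at day 6 was 2.32 ± 0.72 (adjusted p 0.0302), and the log2 value over differentiation in Notch1-/- cells was 0.74 ± 0.66 (adjusted p 0.405). In WT cells it fell by 2.06 ± 0.72 (adjusted p 0.0358), and the difference between the 2 changes was 2.80 ± 0.98 (adjusted p 0.0854).

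The Hes5 calls were lost when certain single libraries were left out, mostly with a log2 value close to that in all libraries. The day 6 difference between genotypes was 1.496 (adjusted p 0.174) without Notch1-/- day 6 replicate 3, 2.39 (adjusted p 0.0864) without WT day 6 replicate 1 and 1.93 (adjusted p 0.116) without WT day 6 replicate 2. The fall in WT cells was no longer called without WT day 0 replicate 1 (-1.78, adjusted p 0.0943) or replicate 2 (-2.03, adjusted p 0.0623), or without WT day 6 replicate 1 (-2.12, adjusted p 0.0869) or replicate 2 (-1.66, adjusted p 0.132). Neural progenitor markers, 8 of 10 measured, summed to 23.7 to 32.7 CPM in Notch1-/- day 6 embryoid bodies and 18.4 to 21.8 CPM in WT day 6 embryoid bodies. Of the 7 tested, 2 were higher (Nes and Dcx) and 1 lower (Zic1) in Notch1-/-. Nes, which encodes nestin, had 24.8 ± 3.7 CPM in Notch1-/- day 6 embryoid bodies and 9.56 ± 1.3 CPM in WT day 6 embryoid bodies (SD, n = 3 each). It makes up most of the Notch1-/- sum but not of the WT sum, and shares 48.8% of its exon length. Zic1, a factor of the dorsal neural tube, had 0.862 ± 0.59 CPM in Notch1-/- day 6 embryoid bodies and 8.53 ± 0.68 CPM in WT day 6 embryoid bodies (adjusted p 0.000784). Sox3 is listed at 0 in all 12 libraries with most of its exon length shared. Their part in the Hes5 and Hes6 values was not tested. In bulk RNA, fewer cells of a type and less RNA per cell cannot be told apart, for Hes5 and for the other genes.

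**Figure D2:**
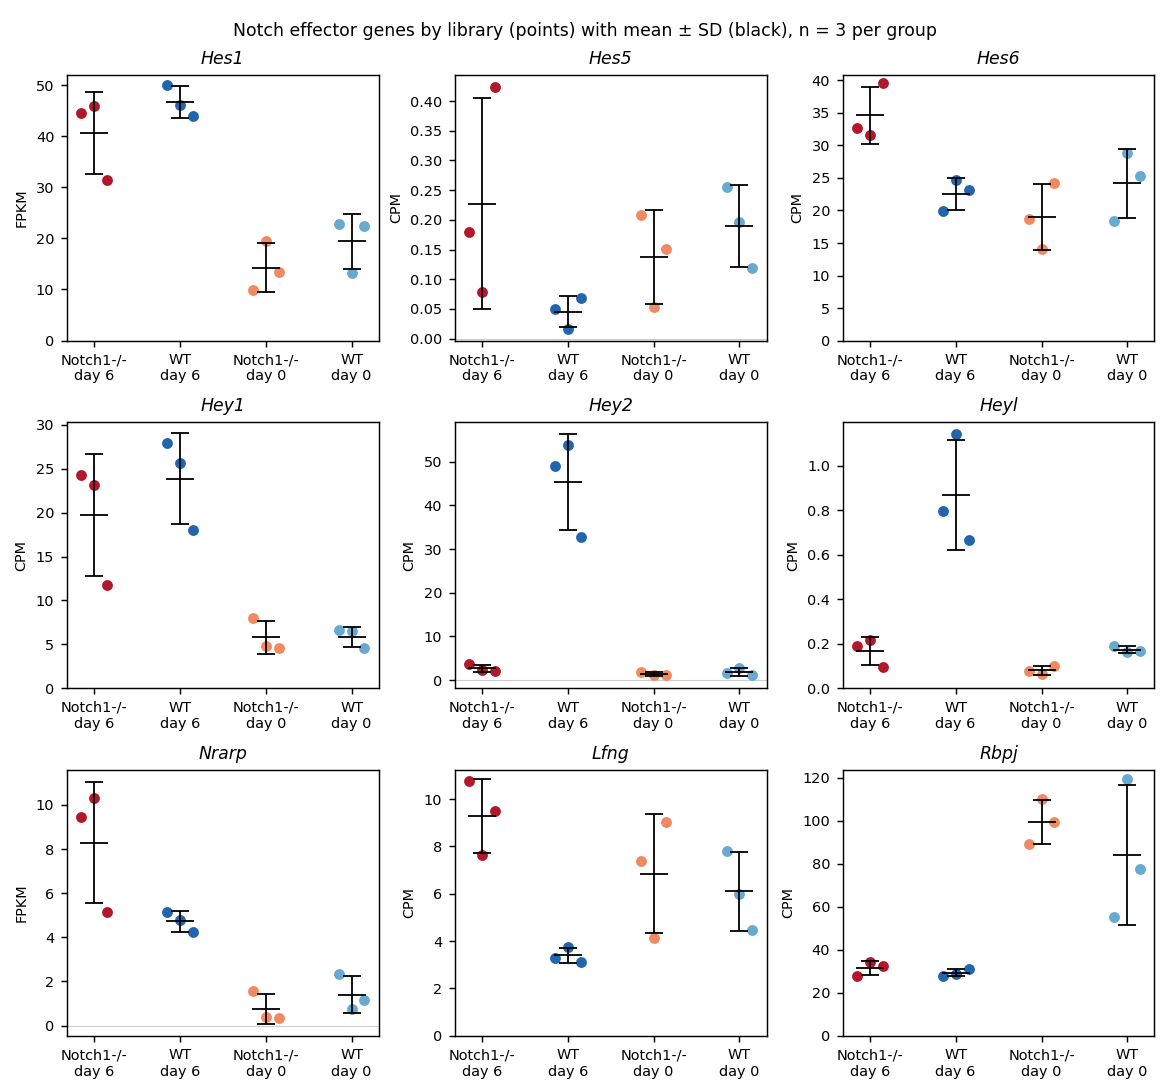
Each panel shows 1 gene, with CPM or, for Hes1 and Nrarp, FPKM on the vertical axis from 0; points are libraries and black bars the mean ± SD of 3. Hey2 stands at 32.8 to 53.9 CPM in WT day 6 embryoid bodies and at or below 3.57 CPM in the other 9 libraries, while Rbpj is low and Hes1 high in all 6 day 6 libraries.

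Hey2 gave the greatest differences of the 9 genes. Hey2 is a repressor needed for the ventricles of the heart and, with Hey1, for arteries. It had 3.57, 2.25 and 2.09 CPM in Notch1-/- day 6 embryoid bodies, 49.1, 53.9 and 32.8 CPM in WT day 6 embryoid bodies, 1.91, 1.18 and 1.08 CPM in Notch1-/- day 0 cells and 1.51, 2.80 and 1.09 CPM in WT day 0 cells. The WT day 6 libraries stood far above the other 9, and the Notch1-/- day 6 libraries just above Notch1-/- day 0. The log2 change over differentiation in Notch1-/- cells was 0.92 ± 0.36 (adjusted p 0.0636, and 0.0244 to 0.236 over the alternatives). In WT cells Hey2 rose 25.2-fold, 4.65 ± 0.41 on the log2 scale (adjusted p 5.96e-06).

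At day 6 Hey2 was 17.2-fold lower in Notch1-/- than in WT embryoid bodies, a log2 difference of -4.10 ± 0.40 (adjusted p 1.95e-05). At day 0 the genotypes overlapped, with a log2 difference of -0.37 ± 0.36 (adjusted p 0.523). The difference between the 2 changes over differentiation was -3.73 ± 0.52 (adjusted p 0.000926). Over 17 alternatives, each library left out among them, it ran from -4.22 to -2.79 with adjusted p from 1.07e-10 to 0.00404.

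Hey1, the closest relative of Hey2, behaved otherwise. It had 24.3, 23.2 and 11.7 CPM in Notch1-/- day 6 embryoid bodies, 27.9, 25.7 and 18.0 CPM in WT day 6 embryoid bodies, 7.94, 4.84 and 4.58 CPM in Notch1-/- day 0 cells and 6.58, 6.48 and 4.55 CPM in WT day 0 cells. All day 6 libraries lay above all day 0 libraries, and genotypes overlapped on both days. Hey1 rose by 1.77 ± 0.32 on the log2 scale in Notch1-/- cells (adjusted p 0.00107) and by 2.02 ± 0.32 in WT cells (adjusted p 0.000336). The genotypes differed by -0.27 ± 0.31 at day 6 (adjusted p 0.537) and by -0.02 ± 0.31 at day 0 (adjusted p 0.973), and the difference between changes was -0.25 (adjusted p 0.770).

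The 2 genes can be set side by side per transcript length. The FPKM of Hey2 over that of Hey1 was 0.125, 0.0819 and 0.154 in Notch1-/- day 6 embryoid bodies and 1.52, 1.81 and 1.59 in WT day 6 embryoid bodies. At day 0 it was 0.206, 0.200 and 0.205 in Notch1-/- cells and 0.196, 0.377 and 0.210 in WT cells. Hey2 exceeded Hey1 in the 3 WT day 6 libraries and in no other library.

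Heyl, the third Hey gene and a marker of vessel smooth muscle, followed Hey2 in direction at a far lower level. It had 0.189, 0.218 and 0.0968 CPM in Notch1-/- day 6 embryoid bodies, 0.795, 1.14 and 0.667 CPM in WT day 6 embryoid bodies, 0.0793, 0.0615 and 0.1002 CPM in Notch1-/- day 0 cells and 0.190, 0.162 and 0.169 CPM in WT day 0 cells. WT day 6 libraries were the highest and Notch1-/- day 0 libraries lay below WT day 0. Its log2 change over differentiation in Notch1-/- cells was 1.06 ± 0.42 (adjusted p 0.0652), and in WT cells Heyl rose 4.97-fold (log2 2.31 ± 0.38, adjusted p 0.000474). The genotypes differed by -2.37 ± 0.38 at day 6 (adjusted p 0.000744) and by -1.11 ± 0.42 at day 0 (adjusted p 0.111). The difference between the changes was -1.26 ± 0.57 (adjusted p 0.181), so the genotypes are not shown to change Heyl differently over time.

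The summed levels of several cell type lists were lower in Notch1-/- day 6 embryoid bodies, as were Hey2 and Heyl, while Hey1 was not called. Endothelial markers, 9 of 10 measured, summed to 121 to 292 CPM in Notch1-/- day 6 embryoid bodies and 344 to 560 CPM in WT day 6 embryoid bodies, and 7 of the 9 tested were lower in Notch1-/-. Cdh5, the endothelial cadherin, had 1.25 ± 0.38 CPM in Notch1-/- day 6 embryoid bodies and 49.5 ± 10.1 CPM in WT day 6 embryoid bodies. Kdr, the receptor for VEGF on early vessel cells, had 182 ± 98.7 CPM in Notch1-/- day 6 embryoid bodies and 251 ± 70.3 CPM in WT day 6 embryoid bodies (adjusted p 0.492). On average Kdr, which was not called, made up most of the endothelial sum in both genotypes.

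Cardiac markers, 9 of 10 measured, summed to 16.1 to 54.4 CPM in Notch1-/- day 6 embryoid bodies and 239 to 395 CPM in WT day 6 embryoid bodies, with 4 of 7 tested lower and 1 higher in Notch1-/-. Tbx20 made up most of the WT sum, with 22.5 ± 13.5 CPM in Notch1-/- and 265 ± 70.2 CPM in WT day 6 embryoid bodies. Myl4 was the higher gene, with 3.23 ± 1.4 CPM in Notch1-/- and 1.17 ± 0.44 CPM in WT day 6 embryoid bodies. Actc1 and Tnnt2 were not called, so the sum does not stand for every gene of the list. Smooth muscle and pericyte markers, 8 of 8 measured, summed to 274 to 376 CPM in Notch1-/- day 6 embryoid bodies and 863 to 1200 CPM in WT day 6 embryoid bodies. Of the 7 tested, 3 were lower (Acta2, Pdgfrb and Rgs5) and 2 higher (Cnn1 and Mcam) in Notch1-/-, so the list did not move one way. Feeder fibroblast markers summed to 210 to 286 CPM in Notch1-/- day 6 embryoid bodies and 1381 to 1802 CPM in WT day 6 embryoid bodies. Of the 18 tested, 9 were lower and 1 higher in Notch1-/-. Col1a1 had 28.4 ± 6.2 CPM in Notch1-/- and 734 ± 218 CPM in WT day 6 embryoid bodies. Lox had 1.89 ± 0.67 CPM and 1.32 ± 0.57 CPM in the same groups and was not called. Over differentiation in WT cells, 3 of the 18 rose (Cdh11, Pdgfrb and Postn) and 10 fell. The day 6 sum thus cannot be read as an amount of feeder cells. Hand1, Hand2 and Tagln are listed at 0 counts in all 12 libraries, each with most of its exon length shared with another locus. The part of these cell types in the Hey2 and Heyl values was not tested.

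**Figure D3:**
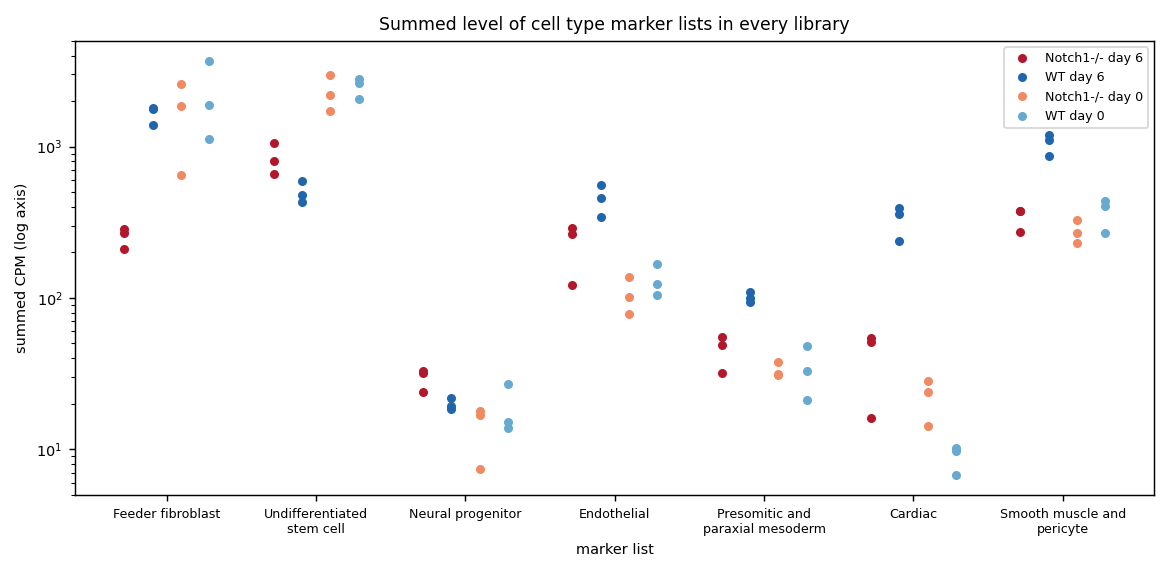
Summed CPM of 7 marker lists (log axis) in each library, with 1 colour per group and the lists along the horizontal axis. Cardiac markers stand at 239 to 395 CPM in WT day 6 embryoid bodies, above the 6.77 to 54.4 CPM of the other 9 libraries, and feeder markers are lowest in Notch1-/- day 6 embryoid bodies (210 to 286 CPM).

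Nrarp and Lfng act back on the pathway. Nrarp is a small ankyrin repeat protein that binds the Notch and Rbpj complex and limits it. It had 9.44, 10.3 and 5.15 FPKM in Notch1-/- day 6 embryoid bodies, 5.14, 4.80 and 4.23 FPKM in WT day 6 embryoid bodies, 1.55, 0.404 and 0.352 FPKM in Notch1-/- day 0 cells and 2.32, 0.731 and 1.16 FPKM in WT day 0 cells. All day 6 libraries lay above all day 0 libraries. Notch1-/- day 6 lay above WT day 6, by as little as 5.15 against 5.14 FPKM. By counts these groups overlapped, with 2.58 CPM in Notch1-/- day 6 replicate 3 and 2.64 CPM in WT day 6 replicate 1. Nrarp rose by 2.41 ± 0.32 on the log2(FPKM + 1) scale in Notch1-/- cells (limma, adjusted p 0.000315) and by 1.30 ± 0.32 in WT cells (adjusted p 0.0068). The day 6 difference between genotypes was 0.65 ± 0.32 (adjusted p 0.138), that at day 0 was -0.45 ± 0.32 (adjusted p 0.364), and that between the changes was 1.11 ± 0.45 (adjusted p 0.131). Without Notch1-/- day 0 replicate 1, the highest of its group, the difference between the changes was 1.40 with an adjusted p of 0.0392.

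Lfng encodes Lunatic fringe, a glycosyltransferase that modifies Notch receptors and shifts their response from Jagged to Delta ligands. It had 10.8, 7.62 and 9.48 CPM in Notch1-/- day 6 embryoid bodies, 3.30, 3.76 and 3.12 CPM in WT day 6 embryoid bodies, 7.40, 4.12 and 9.04 CPM in Notch1-/- day 0 cells and 7.81, 6.01 and 4.48 CPM in WT day 0 cells. WT day 6 libraries were the lowest of the 12. At day 6 Lfng was 2.74-fold higher in Notch1-/- than in WT embryoid bodies (log2 1.45 ± 0.30, adjusted p 0.00337), a call kept in all 18 alternatives. The log2 change over differentiation in Notch1-/- cells was 0.44 ± 0.29 (adjusted p 0.264), and in WT cells Lfng fell by 0.85 ± 0.30 (adjusted p 0.0345). The difference between the changes was 1.28 ± 0.42 with an adjusted p of 0.0649, and 0.0325 to 0.141 over the alternatives.

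The fall of Lfng in WT cells was not called when any of 5 single libraries was left out. The log2 change was -0.63 (adjusted p 0.118) without WT day 0 replicate 1 and -0.85 (adjusted p 0.0554) without WT day 0 replicate 2. Without WT day 6 replicates 1, 2 and 3 it was -0.81 (adjusted p 0.0996), -0.91 (adjusted p 0.0684) and -0.78 (adjusted p 0.106), so in 4 of the 5 cases the change stayed near its size in all libraries. By FPKM it was -0.53 (adjusted p 0.0577). Presomitic and paraxial mesoderm markers, 8 of 10 measured, did not move one way at day 6. They summed to 32.0 to 55.5 CPM in Notch1-/- day 6 embryoid bodies and 94.7 to 110 CPM in WT day 6 embryoid bodies. Of the 6 tested, 3 were lower in Notch1-/- (Rspo3, Cited1 and Pax3) and 1 was higher, Mesp2, a segmentation gene. Mesp2 had 0.804 ± 0.20 CPM in Notch1-/- day 6 embryoid bodies and 0.00852 ± 0.0085 CPM in WT day 6 embryoid bodies (adjusted p 0.000166), and shares 71.3% of its exon length with another locus. Their part in the Lfng value was not tested.

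Per transcript length, Hes1 had the highest level of the 9 at day 6 and Rbpj at day 0. In Notch1-/- day 6 embryoid bodies the order of mean FPKM was Hes1 (40.6), Rbpj (19.97), Hes6 (17.1), Nrarp (8.30), Hey1 (5.64), Lfng (2.63), Hey2 (0.644), Hes5 (0.110) and Heyl (0.0220). Rbpj overlapped with Hes6 and Nrarp with Hey1. In WT day 6 embryoid bodies it was Hes1 (46.7), Rbpj (19.1), Hey2 (11.6), Hes6 (11.5), Hey1 (7.11), Nrarp (4.72), Lfng (0.985), Heyl (0.121) and Hes5 (0.0194), where Hey2 overlapped with Hes6. Hey2 thus had rank 7 in Notch1-/- and rank 3 in WT day 6 embryoid bodies.

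In Notch1-/- day 0 cells the order was Rbpj (55.9), Hes1 (14.3), Hes6 (9.15), Lfng (1.97), Hey1 (1.63), Nrarp (0.770), Hey2 (0.333), Hes5 (0.0652) and Heyl (0.00975), and neighbours from Lfng to Hey2 overlapped, as did Hes1 and Hes6. In WT day 0 cells it was Rbpj (50.2), Hes1 (19.4), Hes6 (12.5), Lfng (1.90), Hey1 (1.80), Nrarp (1.40), Hey2 (0.467), Hes5 (0.0959) and Heyl (0.0243), and Lfng, Hey1 and Nrarp overlapped, as did Hes1 and Hes6. The FPKM of Rbpj over that of Hes1 was 0.403 to 0.682 in Notch1-/- day 6 embryoid bodies, 0.372 to 0.473 in WT day 6 embryoid bodies, 3.19 to 4.96 in Notch1-/- day 0 cells and 1.82 to 4.43 in WT day 0 cells.

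**Figure D4:**
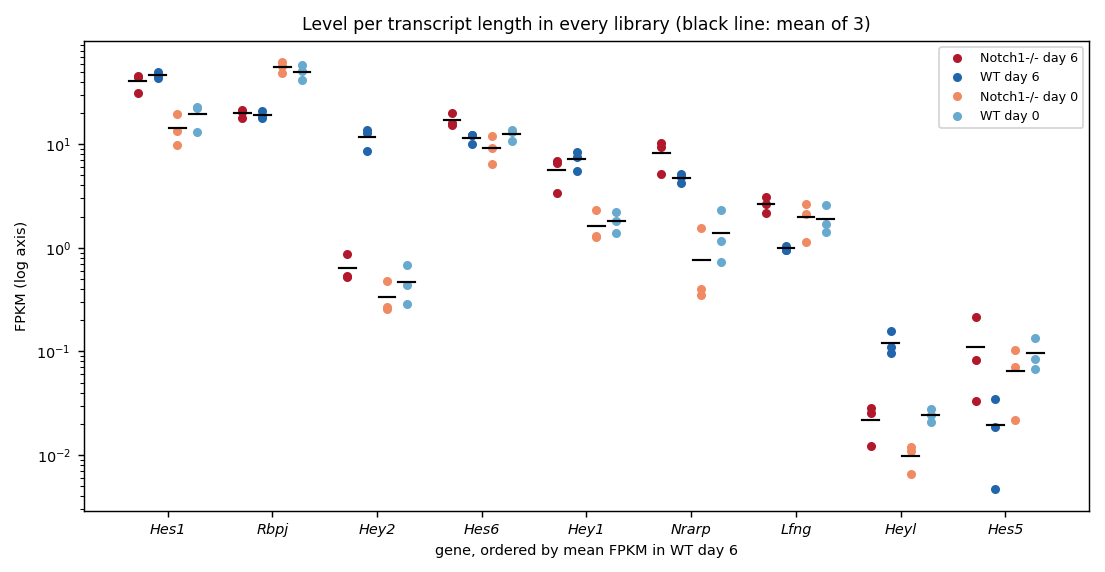
FPKM (log axis) of the 9 genes in every library, ordered along the horizontal axis by the mean in WT day 6 embryoid bodies; points are libraries, coloured by group, and black lines the mean of 3. Hes1 is the highest gene at day 6 (means of 40.6 FPKM in Notch1-/- and 46.7 FPKM in WT embryoid bodies) and Rbpj at day 0 (55.9 FPKM in Notch1-/- and 50.2 FPKM in WT cells).

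The rest of the pathway was taken from lists of known genes. Counts of called genes in these lists stand against shares over all loci of 35.9% over differentiation in Notch1-/- cells, 43.1% in WT cells, and 28.1% between genotypes at day 6 and 9.56% at day 0. Of the 3 receptors tested, Notch2 and Notch3 rose over differentiation in both lines, and Notch1 alone differed between genotypes. Among the 4 ligands tested, Dll1 had 23.4 ± 4.6 CPM in Notch1-/- day 6 embryoid bodies and 2.98 ± 0.47 CPM in WT day 6 embryoid bodies (log2 difference 2.97 ± 0.60, adjusted p 0.00292), with Jag2 also higher and Dll4 lower in Notch1-/-. At day 0 Dll1 was lower, with 3.43 ± 1.3 CPM in Notch1-/- cells and 16.1 ± 12.2 CPM in WT cells (adjusted p 0.0306), and so was Jag1 (adjusted p 0.0143).

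Of 12 tested genes for processing receptors and ligands, 1 rose in Notch1-/- cells (against 35.9% of all loci called), and 5 rose and 1 fell in WT cells (against 43.1%). The median log2 change of the 12 was 0.21 in Notch1-/- cells, against -0.02 over all loci, and 0.33 in WT cells, against -0.12. At day 6, 2 were lower in Notch1-/- embryoid bodies. Adam10, the protease that makes the first cut of the activated receptor, had 78.7 ± 4.6 CPM in Notch1-/- day 6 embryoid bodies and 129 ± 9.3 CPM in WT day 6 embryoid bodies (adjusted p 0.00125). Pofut1, which adds the fucose that fringe enzymes such as Lfng extend, had 61.3 ± 2.8 CPM in Notch1-/- day 6 embryoid bodies and 94.8 ± 4.4 CPM in WT day 6 embryoid bodies (adjusted p 0.00119). Mfng, Manic fringe, fell in WT cells to 1.83 ± 0.22 CPM at day 6, against 7.77 ± 3.7 CPM at day 0 (adjusted p 0.00203).

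Among 5 coactivators tested, Maml3, a Mastermind protein, rose and Kat2b, a histone acetyltransferase, fell in both lines. Maml3 had 30.8 ± 6.4 CPM in Notch1-/- day 6 embryoid bodies and 1.70 ± 1.4 CPM in Notch1-/- day 0 cells. It had 62.0 ± 1.5 CPM in WT day 6 embryoid bodies and 3.37 ± 1.9 CPM in WT day 0 cells. Of 15 corepressors tested, 1 rose and 4 fell in Notch1-/- cells, and 2 rose and 4 fell in WT cells, shares near those over all loci (35.9% and 43.1%). The 4 that fell in both lines were Aes, Ctbp2, Tle1 and Tle4, and Tle3, a Groucho partner of Hes proteins, rose in both.

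Of 9 inhibitors and turnover genes tested, 3 rose and 1 fell in Notch1-/- cells (against 35.9% of all loci). In WT cells 2 rose and 1 fell (against 43.1%). Numb, which turns Notch receptors over at the membrane, rose in both lines. At day 6, 1 of the 9 was higher and 2 were lower in Notch1-/- embryoid bodies, a share near the 28.1% over all loci. The lower genes were Numb and Sel1l (adjusted p 0.0322). Numb had 60.4 ± 5.0 CPM in Notch1-/- day 6 embryoid bodies and 112 ± 6.8 CPM in WT day 6 embryoid bodies (adjusted p 0.00376). Fbxw7, the ubiquitin ligase subunit for the cut receptor, was higher in Notch1-/- day 6 embryoid bodies, with 74.0 ± 3.7 CPM against 54.8 ± 2.3 CPM in WT day 6 embryoid bodies (adjusted p 0.0216).

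Of 7 other Hes and partner genes tested, 1 rose and 1 fell in Notch1-/- cells (against 35.9% of all loci), and 2 rose and 2 fell in WT cells (against 43.1%). Id2, which binds bHLH partners and keeps them off DNA, had 13.4 ± 1.4 CPM in Notch1-/- day 6 embryoid bodies and 137 ± 6.3 CPM in WT day 6 embryoid bodies (adjusted p 4.82e-05). At day 0 the order was turned, with 72.2 ± 34.3 CPM in Notch1-/- cells and 24.2 ± 9.8 CPM in WT cells (adjusted p 0.0127). The change of Id2 over differentiation differed between genotypes by -4.94 ± 0.50 (adjusted p 0.000162). Id3 was also lower in Notch1-/- day 6 embryoid bodies, with 82.9 ± 15.1 CPM against 212 ± 10.8 CPM in WT day 6 embryoid bodies (adjusted p 0.00638). The 7 did not move one way. At day 6, 2 were lower and 1 was higher in Notch1-/- (against 28.1% of all loci called). For the difference between changes, 2 were lower and 2 higher (against 11.3%).

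Of 10 tested genes reported elsewhere as Notch targets, 3 rose and 2 fell in Notch1-/- cells (against 35.9% of all loci), and 6 rose and 1 fell in WT cells (against 43.1%). At day 6, 1 was higher and 4 were lower in Notch1-/- embryoid bodies (against 28.1%), with a median log2 difference of -0.21 against 0.01 over all loci. Acta2, smooth muscle actin, had 4.41 ± 1.5 CPM in Notch1-/- day 6 embryoid bodies and 384 ± 69.9 CPM in WT day 6 embryoid bodies (adjusted p 7.85e-06). Snai2, a repressor of epithelial genes, had 1.55 ± 0.44 CPM in Notch1-/- day 6 embryoid bodies and 62.9 ± 8.6 CPM in WT day 6 embryoid bodies (adjusted p 0.000259). Sox9, a cartilage and progenitor factor, had 4.15 ± 1.2 CPM in Notch1-/- day 6 embryoid bodies and 25.3 ± 5.1 CPM in WT day 6 embryoid bodies (adjusted p 0.00142).

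The genes most like each member over the 12 libraries were found by Pearson correlation of log2 CPM among 7559 named genes. The points share 4 groups and common library scaling, so the values only describe likeness. Hey2 was closest to Vps9d1 (r = 0.985) and Nck2 (r = 0.984), Heyl to Morc4 (0.979) and Tgfb2 (0.976), and Hey1 to Lrrn4 (0.985) and Rnpepl1 (0.977). Rbpj was closest to Eed (0.991), a Polycomb subunit, and Manba (0.989), and Nrarp by counts to Fbxo3 (0.991) and Frmd4b (0.981). Hes5 was closest to Esrp1 (0.904) and Spock2 (0.869), Hes6 to Ccdc194 (0.904) and Pi4k2b (0.899), and Lfng to Card10 (0.931) and Kif11 (0.855). Lrrn4 and Vps9d1 share 59.7% and 53.0% of their exon length with other loci, so their counts are uncertain.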

How the data were processed

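Poly(A) RNA of 12 libraries was measured, and the labels do not say whether replicates were separate cultures, so a p-value covers no more than the spread among these libraries, which may be technical. The authors deposited counts per merged locus, FPKM and mm9 transcript models, and per the submitters' processing notes the tools were DESeq, HTSeq 0.5.4p3, Cufflinks 2.1.1 and TopHat2 2.0.8, with no role given. The strand setting of the counting is not given in the sources used here, so overlapping loci on opposite strands cannot be told apart. The members and lists were chosen with earlier results of these data known. Loci were linked to GENCODE vM21 gene names by exon and intron lengths, without converting coordinates: 16441 of 40039 loci had 1 gene, and 3 matched when looked up on a wrong chromosome. Of the listed genes, 130 were linked by structure, 12 by their distances to neighbouring genes and 21 not at all.

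Counts were tested with edgeR 4.0.16 (R 4.3.3; quasi-likelihood, TMM scaling, default expression filter with a minimum count of 10, 1 mean per group over all libraries, 23991 loci, Benjamini-Hochberg adjustment). FPKM, for Hes1 and Nrarp, were tested with limma 3.58.1 on log2(FPKM + 1) over 13371 loci with at least 1 FPKM in 3 libraries. Adjusted p under 0.05 was called. FPKM replaced counts where at least 50% of exon length was shared. Named genes were the members, up to 3 called genes per list and comparison, and 2 alike genes per member (mean log2 CPM 2 or more); Mfng, Tle1, Tle4 and the marker genes were named after their values were seen. Both tests were run on simulated counts, where limma was given scaled counts and not FPKM of overlapping loci. The changed loci in it were drawn from those above a floor of mean CPM. The check therefore does not cover the FPKM of Hes1 and Nrarp or the low counts of Hes5 and Heyl. Over loci pooled together, counting error was small against the spread between replicates (chi-square per degree of freedom 41.3 to 404). Loci with many counts weigh most in this value. It does not cover Hes5 (2 to 57 counts) or Heyl (7 to 135 counts).

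Alternatives were DESeq2 1.42.0, upper quartile scaling, no filter, each library left out, a replicate block, only the groups compared, FPKM for all members, a pseudocount of 0.1 and no FPKM filter. Nrarp by counts and a block within day 0 were added after seeing the data. Replicate numbers are those of the sample titles, and the numbers in the submitters' library names often differ between libraries with the same replicate number. Same-numbered libraries of the 2 genotypes deviated together at day 0 (r = 0.398, 0.275 and 0.165 across loci), the only comparison where all 3 pairs passed 0.1, and there the block changed no member's call.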

Additional observations from a re-analysis of the deposited data

Results flagged for a closer look

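Hey2 was singled out because its change over differentiation differed between genotypes by a direct test. The log2 change in Notch1-/- cells minus that in WT cells was -3.73 (edgeR, adjusted p 0.000926). All 3 Notch1-/- day 6 libraries lay below all 3 WT day 6 libraries.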

How the results depend on the processing

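Of 784 alternative values for single members, 734 kept their direction and side of the threshold, 13 lost the call, 21 gained it and 16 turned in sign. None of those 16 was called in either analysis. For Hey1 at day 0 the turned values were 0.031 with DESeq2 and 0.0182 with upper quartile scaling. The others arose with 1 library left out. Over the libraries left out, the day 0 difference ran from -0.31 to 0.132 for Hey1, -0.662 to 0.105 for Hey2 and -0.0732 to 0.438 for Lfng, and the day 6 difference from -0.442 to 0.001 for Hey1. The change over differentiation ran from -0.0761 to 1.17 for Hes5 in Notch1-/- cells and from -0.26 to 0.0583 for Hes6 in WT cells. The difference between the changes ran from -0.499 to 0.094 for Rbpj, -0.0055 to 0.459 for Hes1 and -0.427 to 0.0246 for Hey1.

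With FPKM for all members the number called was 5 (8 in the main test) for WT days, 2 (4) for day 6 genotypes and 2 (1) for the difference between changes. Hes5 and Heyl do not pass the FPKM filter and have no value there, nor has Hes5 with only the day 6 groups fitted. Leaving out 1 library gave 0 to 1 members at day 0, where the 1 was Rbpj without WT day 0 replicate 2, and 1 to 3 for the difference between changes. For that difference DESeq2 gave 2 (Lfng added) and the replicate block 3 (Hes5, adjusted p 0.0418, and Hes6, adjusted p 0.0459, added). With the block, Hey2 in Notch1-/- cells (0.93, adjusted p 0.0244) and Hes6 at day 6 (adjusted p 0.0372) were also called, and no other member's call changed. Outside day 0 the replicate numbers are shared labels: same-numbered correlations were 0.172, 0.119 and -0.0323 for Notch1-/- days, 0.13, 0.127 and 0.0483 for WT days, and 0.118, 0.0816 and -0.0115 for day 6 genotypes. As a hint from the data, every library correlated best with its own number for WT days and for day 0 genotypes, and not in the other 2 comparisons. The numbers in the submitters' library names do not follow these replicate numbers, so a shared batch is not shown. Where not given above, the cause was not tested.

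Upper quartile scaling moved the median log2 change of all loci over differentiation to -0.18 from -0.02 in Notch1-/- cells and to -0.29 from -0.12 in WT cells, and the share of calls that were higher to 37.1% from 47.8% in Notch1-/- cells. Depth limits Hes5 and Heyl, whose low counts make their folds imprecise.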

Other observations

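Notch1-/- day 6 replicate 3 stood apart from the other 2 libraries of its group for several of these genes. It was the lowest for Hes1 (31.4 FPKM against 44.5 and 46.0 FPKM), Hey1 (11.7 CPM against 24.3 and 23.2 CPM) and Nrarp (5.15 FPKM against 9.44 and 10.3 FPKM), and the highest for Hes5 (0.424 CPM against 0.180 and 0.0780 CPM) and Hes6 (39.6 CPM against 32.6 and 31.6 CPM). Its endothelial marker sum was 121 CPM against 292 and 263 CPM, and its cardiac marker sum 16.1 CPM against 51.3 and 54.4 CPM. Its total of 134662426 counts was the highest of the 12 libraries. Much of this pattern was shared by WT day 6 replicate 3, though the submitters' names of these libraries carry different numbers. That library was the lowest of its group for Hes1 (44.0 FPKM), Hey1 (18.0 CPM) and Nrarp (4.23 FPKM). It was the highest of its group for Hes5 (0.0684 CPM) but not for Hes6 (23.2 CPM). Its endothelial (344 CPM) and cardiac (239 CPM) marker sums were also the lowest of its group. The cause was not tested.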
